A study of Homo sapiens with 24 samples.

Results

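Transcript levels of 10 genes that license and fire DNA replication origins were followed through a time course of K562 cells, an established human leukaemia line with erythroid features. The genes were ORC1, ORC6, CDC6, CDT1, GMNN, MCM10, CDC45, GINS1, GINS2 and DBF4, a list of symbols that were matched to Ensembl identifiers. All 10 were found among the 12285 genes of the deposited expression table. Cells were grown in RPMI with bovine calf serum, separated into a synchronous population by centrifugal elutriation (sorting by size and density, without a drug), put back into culture, and sampled every 2 h from 0 h to 46 h. Each of the 24 time points had 1 library and no replicate, and no treatment or genotype distinguished them, so hours after elutriation were the only variable. K562 is a cancer line with an altered genome, and the loss of synchrony over the course was not measured in the files used here.

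An origin is licensed when the origin recognition complex, CDC6 and CDT1 load the MCM helicase onto DNA in an inactive form, in late mitosis and G1 phase. It fires when CDC45 and the GINS complex join the helicase, with MCM10 and with phosphorylation by the kinase CDC7, which is active only when bound by DBF4. Geminin, the product of GMNN, binds CDT1 after the start of S phase and blocks a second loading, and many of these genes are known targets of E2F transcription factors.

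The windows around the transcription starts are shown first, for the members on which the later results turn. The RefSeq promoter table (GRCh38.p14) held 13 entries for the 10 members, each of 250 bases before and 50 after a start. Both strands were searched for the E2F-like words TTTCCCGC, TTTCGCGC, TTTGCCGC and TTTGGCGC. One of them was present for 5 members (CDC6, CDT1, GMNN, GINS1 and GINS2), in 5 of the 13 entries. The share was 3.31% of all 35116 entries and 5.22% of the 12888 entries whose gene was in the expression table. After the windows had been read, the word TTTGGCGGG was also searched, and it was present for CDC6, CDT1, CDC45 and MCM10. It was in 0.273% of all entries and 0.427% of those whose gene was in the expression table. Because it was searched only after these windows were read, these shares are no measure of enrichment among the members. Neither word was found in the entries of ORC1, ORC6 and DBF4. The lines give 120 bases before and 30 after the start, 5′ to 3′ on the strand of the gene, with capitals for these words, or for DBF4 for TTCAAA, the reverse complement of TTTGAA. Of the entries available, the second was taken for GMNN and the first for CDC45. These are the entries that hold the words, and the other entries of GMNN and CDC45 held none of them.
CDC6, chr17:40287759-40287908, plus strand: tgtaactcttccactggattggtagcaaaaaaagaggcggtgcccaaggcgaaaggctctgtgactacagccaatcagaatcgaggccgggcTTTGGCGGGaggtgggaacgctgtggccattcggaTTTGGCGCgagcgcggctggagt
CDT1, chr16:88803669-88803818, plus strand: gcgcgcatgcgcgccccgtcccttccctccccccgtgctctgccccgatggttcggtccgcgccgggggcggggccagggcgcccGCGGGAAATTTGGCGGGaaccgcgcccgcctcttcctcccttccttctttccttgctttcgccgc
GMNN, chr6:24775293-24775442, plus strand: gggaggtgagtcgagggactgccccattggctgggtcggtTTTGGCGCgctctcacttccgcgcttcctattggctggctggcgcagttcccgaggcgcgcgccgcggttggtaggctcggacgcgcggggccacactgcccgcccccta
MCM10, chr10:13161438-13161587, plus strand: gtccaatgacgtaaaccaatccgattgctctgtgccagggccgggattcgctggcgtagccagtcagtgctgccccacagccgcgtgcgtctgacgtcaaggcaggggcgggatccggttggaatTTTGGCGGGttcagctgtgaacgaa
CDC45, chr22:19479800-19479949, plus strand: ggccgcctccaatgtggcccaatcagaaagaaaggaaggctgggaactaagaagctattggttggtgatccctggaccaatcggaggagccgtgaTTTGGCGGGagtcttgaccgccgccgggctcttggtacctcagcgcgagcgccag
GINS2, chr16:85688925-85689074, minus strand: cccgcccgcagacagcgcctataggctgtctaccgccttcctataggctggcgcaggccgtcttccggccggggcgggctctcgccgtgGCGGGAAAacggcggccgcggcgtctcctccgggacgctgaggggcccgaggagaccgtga
DBF4, chr7:87876373-87876522, plus strand: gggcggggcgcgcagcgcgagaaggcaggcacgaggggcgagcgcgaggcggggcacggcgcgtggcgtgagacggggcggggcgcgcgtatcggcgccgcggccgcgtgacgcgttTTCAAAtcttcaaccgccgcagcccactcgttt
The CHR-like words TTTGAA and TTTAAA are known from genes expressed in G2 phase and mitosis. They were present for 2 members, DBF4 and CDC45, in 2 of the 13 entries, and in 24.0% of all entries. For CDC45 they lay in an entry that is not printed here. The DBF4 word began 3 bases before the start. CCAAT was present for 8 members, in 9 of the 13 entries, and in 34.6% of all entries. A word in a window is a description of letters and not a binding site.

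Values are FPKM, sequenced fragments divided by transcript length and by library size, which can be compared between genes. The number of reads behind them is unknown. The 2 libraries at 16 h and 18 h, which the study calls STRIPEs, stood apart: 1097 of 12253 genes were at least 2-fold above the line between 14 h and 20 h and 871 at least 2-fold below it. MALAT1, a nuclear-retained RNA, was at 11073 and 12319 FPKM there, against 556 to 1593 FPKM at the other 22 time points. The deviation fell with GC content across genes (Spearman rho −0.56, n = 12148 genes of the same 2 libraries). Tests are therefore given with and without these libraries, and levels at these hours are given apart from the rest. All 12 erythroid markers searched were in the table, against 1 of 5 fibroblast markers (COL1A2). The erythroid markers summed to 5877 to 8992 FPKM at these 22 time points, COL1A2 was at 1.70 to 3.94 FPKM and the lymphoid marker CD3D at 4.20 to 12.9 FPKM, and the erythroid sum was 4235 FPKM at 16 h and 3880 FPKM at 18 h. HBG1 and HBG2, and HBA1 and HBA2, are near-identical copies whose reads may be split.

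ORC1 and ORC6 belong to the origin recognition complex, which marks the sites where the helicase is loaded. Over the 22 time points without 16 h and 18 h, ORC1 (ENSG00000085840) was lowest at 39.8 FPKM (32 h), had a median of 45.3 FPKM and was highest at 54.8 FPKM (2 h). Its levels were highest at 0 h and 2 h and stayed within 39.8 to 45.9 FPKM from 24 h on. ORC6 (ENSG00000091651), whose product is the smallest subunit, ranged from 46.0 FPKM (14 h) through a median of 52.4 FPKM to 59.2 FPKM (28 h). These were the 2 flattest members, with highest-to-lowest ratios of 1.38 and 1.29.

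CDC6 and CDT1 bring the helicase to the complex. CDC6 (ENSG00000094804), an ATPase, was lowest at 47.7 FPKM (14 h), had a median of 65.8 FPKM and was highest at 97.7 FPKM (2 h). It was at 83.8 FPKM at 22 h and 86.0 FPKM at 28 h, so that high values came back around the start of the second day, below the 2 h value. CDT1 (ENSG00000167513) was lowest at 47.7 FPKM (22 h), had a median of 61.3 FPKM and was highest at 78.4 FPKM (4 h). It went down from 4 h to 22 h and was at 74.0 FPKM again at 46 h. GMNN (ENSG00000112312), the inhibitor of CDT1, was the second most abundant member, with 103 FPKM at its lowest (46 h), a median of 126 FPKM and 157 FPKM at its highest (2 h).

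CDC45 and the GINS subunits complete the active helicase, and MCM10 is needed to set it in motion. CDC45 (ENSG00000093009) was the most abundant member, with a lowest value of 161 FPKM (20 h), a median of 190 FPKM and a highest of 264 FPKM (32 h). Its 2 highest values, 263 FPKM at 6 h and 264 FPKM at 32 h, were single-library peaks, as its neighbours were at 218 and 186 FPKM around 6 h and at 202 and 186 FPKM around 32 h. MCM10 (ENSG00000065328) was lowest at 23 FPKM (14 h), had a median of 28.7 FPKM and was highest at 36.7 FPKM (28 h). It was at 35.8 FPKM at 4 h, 35.9 FPKM at 22 h and 36.0 FPKM at 30 h, with 28.7 FPKM and 31.7 FPKM at 24 h and 26 h in between. GINS2 (ENSG00000131153) was highest at 38.5 FPKM (2 h), had a median of 27.0 FPKM and was lowest at 23.4 FPKM (46 h). GINS1 (ENSG00000101003), of the same complex, was instead lowest at 19.4 FPKM (0 h), had a median of 25.3 FPKM and was highest at 31.1 FPKM (30 h). GINS2 was thus high at the hours when GINS1 was low at the start of the course. GINS1 shared the highs of MCM10 at 22 h (29.3 FPKM), 28 h (30.7 FPKM) and 30 h, with 23.9 FPKM and 24.6 FPKM at 24 h and 26 h. GINS2 instead stayed between 29.9 and 31.9 FPKM at these 5 hours. Summed FPKM of all genes were also higher at 22 h, 28 h and 30 h (503962, 500802 and 520382) than at 24 h and 26 h (464697 and 475436). Whether differences between whole libraries entered these highs, or those of CDC6 at 22 h and 28 h, was not tested.

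DBF4 (ENSG00000006634), the activator of CDC7, was lowest at 36.6 FPKM (4 h), had a median of 48.1 FPKM and was highest at 60.4 FPKM (20 h). At 2 h and 4 h, when CDC6, CDT1 and GINS2 were high, it was at 37.0 FPKM and 36.6 FPKM, but at 22 h, with CDC6 at 83.8 FPKM, it was at 53.8 FPKM. CCNB1, the cyclin of G2 phase and mitosis used as a reference, was also lowest at 4 h (65.0 FPKM) and reached 237 FPKM at 22 h, while CCNE2, the reference for the G1/S transition, was highest at 2 h (38.9 FPKM) and lowest at 14 h (13.5 FPKM). Summed over 10 markers of G2 phase and mitosis, levels ranged from 283 to 811 FPKM over the 22 time points and were 826 and 1001 FPKM at 16 h and 18 h. Over 7 markers of the G1/S transition, E2F1 and PCNA among them, they ranged from 411 to 643 FPKM and were 427 and 438 FPKM. Neither sum described all of its markers. At 16 h and 18 h, E2F1, UNG and CDC25A were below their ranges and SLBP was above its range. CCNE1, CCNE2 and PCNA were inside theirs. PLK1, CENPE, CENPF and HMMR were above their ranges at both hours, and AURKA, BUB1 and KIF20A at 18 h alone. CCNB1, CCNB2 and CDC20 were inside theirs at both hours.

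In order of median level over the 22 time points the members ranked CDC45, GMNN, CDC6, CDT1, ORC6, DBF4, ORC1, MCM10, GINS2 and GINS1. The ranges of the neighbours CDC6 and CDT1, CDT1 and ORC6, ORC6 and DBF4, DBF4 and ORC1, MCM10 and GINS2, and GINS2 and GINS1 overlapped. Those of CDC45 and GMNN, GMNN and CDC6, and ORC1 and MCM10 did not. The median highest-to-lowest ratio of the members was 1.62, against 1.75 over 12146 genes. With 1 culture, fewer cells in a phase and less RNA per cell cannot be told apart.

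**Figure D1:**
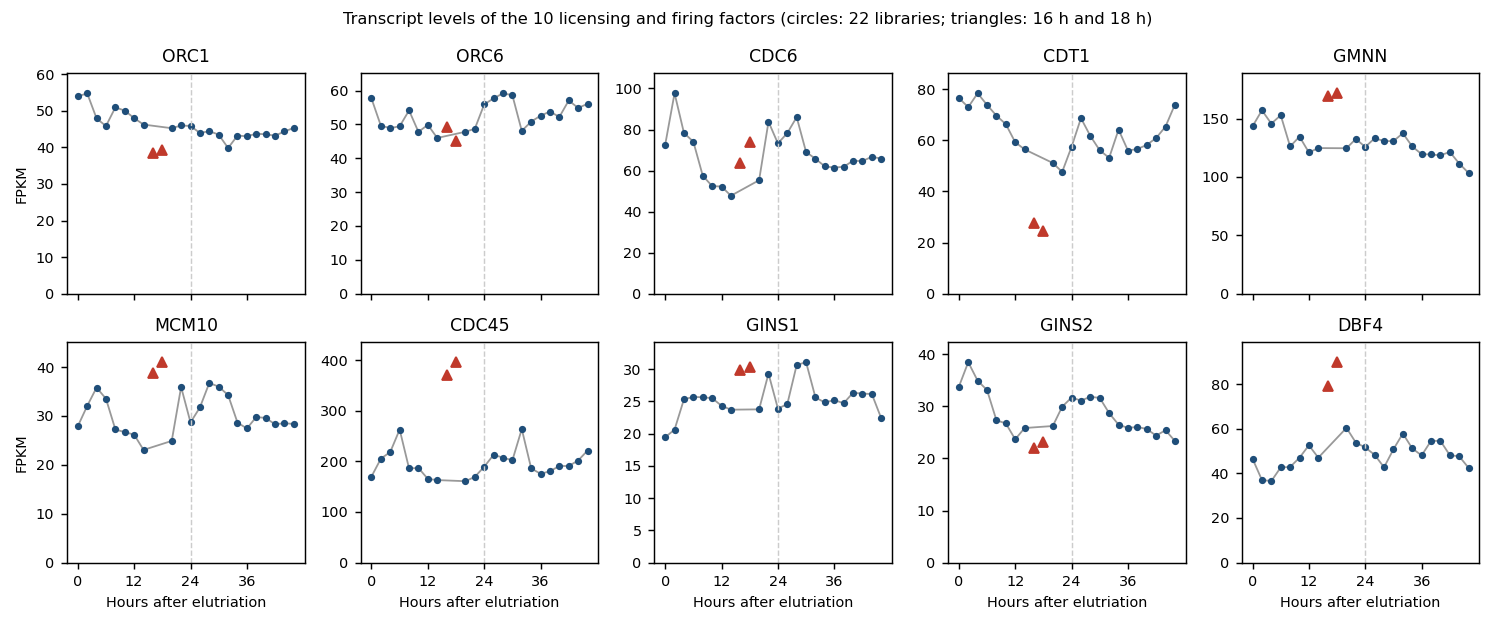
FPKM of each member (y axis, from 0) against hours after elutriation (x axis), 1 library per point. Circles are the 22 time points without 16 h and 18 h, triangles these 2 libraries, and the dashed line marks 24 h. CDC6 falls to 47.7 FPKM at 14 h and is at 86.0 FPKM at 28 h, and the triangles of CDC45 and CDT1 lie far above and below their neighbours.

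To ask whether levels followed a 24 h order in time, the cycle length taken in the study, the JTK statistic was used, a rank correlation with cosines of 12 phases. At a permutation p adjusted over all genes of at most 0.05, 3 of 10 members were called (CDC6, GINS2 and DBF4), against 13% of all genes. Without 16 h and 18 h, 3 members were also called (CDC6, GINS2 and GMNN), against 14.7% of all genes. CDC6 had an adjusted permutation p of 0.0030 with all libraries and 0.0041 without the 2, and GINS2 0.0015 and 0.0041. The DBF4 call rested on the 2 libraries, with an adjusted permutation p of 0.0497 with them and 0.14 without them. GMNN showed the opposite, with 0.24 and 0.018. With all libraries kept and quantile-normalized, DBF4 was still called (adjusted permutation p = 0.028) and GMNN was not (0.094). The deposited table of corrected scores gave 0.024 and 0.17 in the same order, and interpolation of 16 h and 18 h gave 0.10 and 0.016. In the study, the detector still found 16 h and 18 h after quantile normalization, but not after the other corrections. The p-values measure the fit within 1 time course, whose neighbouring libraries come from the same culture, and not the spread between cultures.

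The size and hour of the 24 h component were taken from a cosine fitted to log2(FPKM + 1) with limma, as a peak-to-trough difference with its standard error (SE). This test called 2 of 10 members, CDC6 and GINS2, against 9.17% of all genes. CDC6 changed by 0.51 ± 0.10 (SE, log2; adjusted p = 0.011, limma), a ratio of 1.42, and GINS2 by 0.49 ± 0.07 (adjusted p = 0.0034, limma), a ratio of 1.40. Without 16 h and 18 h, 4 members were called, against 17.1% of all genes. CDC6 then changed by 0.55 ± 0.09 (adjusted p = 0.0063, limma) and GINS2 by 0.46 ± 0.07 (adjusted p = 0.0056, limma). GMNN, at 0.28 ± 0.07 (adjusted p = 0.028, limma), and MCM10, at 0.34 ± 0.09 (adjusted p = 0.029, limma), were the other two.

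These last 2 calls were close to the threshold. With 32 h, a weaker STRIPE in the study, and 6 h also left out, GMNN had 0.25 (adjusted p = 0.066, limma) and MCM10 0.32 (adjusted p = 0.055, limma), while CDC6 and GINS2 were still called. With only 16 h and 18 h left out and libraries centred on their median, GMNN had an adjusted p of 0.054 in limma and MCM10 of 0.028. CDC45, the most abundant member, had 0.32 ± 0.10 without 16 h and 18 h (adjusted p = 0.069, limma).

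CDT1 and DBF4 had larger fitted cosines with the 2 libraries than without. For CDT1 the size was 0.61 ± 0.19 (adjusted p = 0.084, limma) with them and 0.27 ± 0.11 (adjusted p = 0.17, limma) without them. For DBF4 it was 0.48 ± 0.13 (adjusted p = 0.056, limma) and 0.28 ± 0.10 (adjusted p = 0.12, limma). With all libraries kept, DBF4 was called after median centring (adjusted p = 0.040, limma) and after upper-quartile scaling (adjusted p = 0.025, limma). CDT1 was called after neither. ORC1, ORC6 and GINS1 had sizes of 0.10 to 0.11 without 16 h and 18 h and adjusted p-values of 0.37 to 0.62 in limma.

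**Figure D2:**
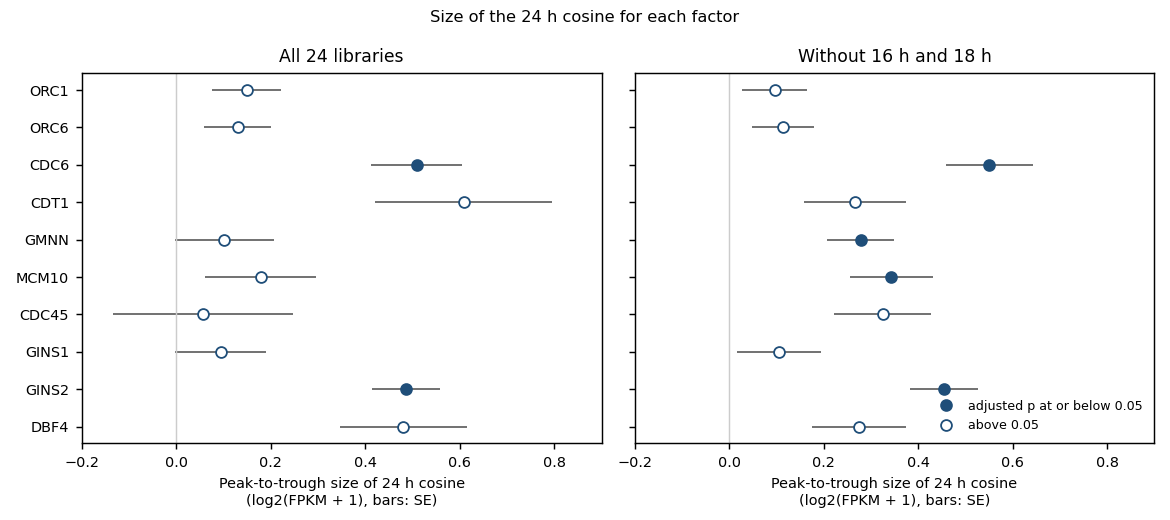
Peak-to-trough size of the 24 h cosine on the log2(FPKM + 1) scale (x axis, bars are SE) for each member (y axis), with all 24 libraries on the left and without 16 h and 18 h on the right. Filled points have an adjusted p at or below 0.05: CDC6 and GINS2 on the left, joined by GMNN and MCM10 on the right.

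The fitted peaks gave an order of hours, first from the 22 time points. ORC6 came at 0.40 ± 2.3 h, CDC6 at 1.8 ± 0.65 h and ORC1 at 2.2 ± 2.7 h. GINS2, CDT1, MCM10, CDC45 and GMNN followed at 3.3 ± 0.57 h, 3.6 ± 1.5 h, 3.7 ± 0.91 h, 4.7 ± 1.1 h and 4.7 ± 0.89 h. GINS1 was at 8.9 ± 3.4 h and DBF4 at 15.8 ± 1.3 h. Apart from the step from GINS1 to DBF4, neighbours in this order lay closer than the sum of their SE. The loader CDC6 was thus earliest among the 4 called members and the inhibitor GMNN latest, with no test of the difference in hour. With all 24 libraries CDC6 was at 1.3 ± 0.72 h, GINS2 at 3.4 ± 0.56 h, GMNN at 4.2 ± 3.9 h, MCM10 at 2.4 ± 2.5 h and DBF4 at 16.4 ± 1.1 h, while CDC45 was at 19.4 ± 13 h and GINS1 at 12.5 ± 3.9 h. A peak hour of a member that was not called is a fitted value only.

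**Figure D3:**
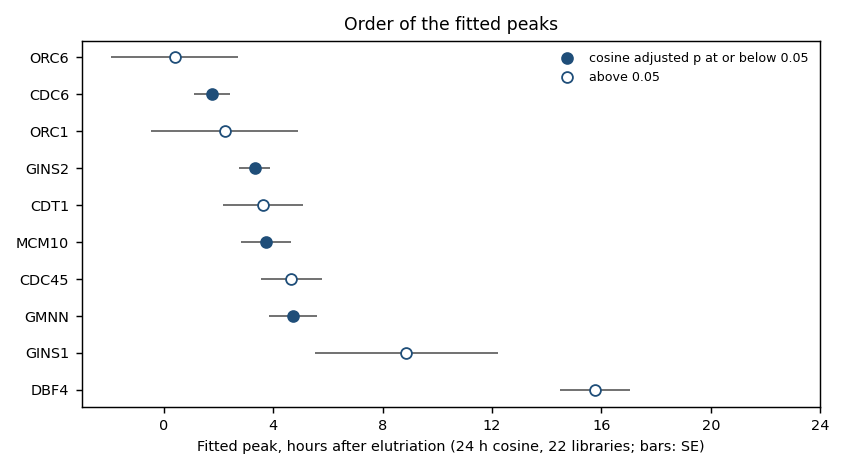
Fitted peak in hours after elutriation (x axis, bars are SE) of the 24 h cosine over 22 libraries, with members ordered by hour (y axis). Filled points mark members with a cosine adjusted p at or below 0.05. The members other than GINS1 and DBF4 peak before 6 h, and DBF4 stands alone at 15.8 h.

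The spread of levels was also taken within each day. Within the first 24 h, with 16 h and 18 h left out, the highest-to-lowest ratio was 2.05 for CDC6, 1.63 for GINS2, 1.56 for MCM10 and 1.65 for DBF4. At the same hours of the second day it was 1.40, 1.36, 1.34 and 1.36. For GMNN the ratio was 1.30 on the first day and 1.33 on the second. The hours of the extremes did not repeat for every member: DBF4 was lowest at 4 h and highest at 20 h on the first day, and lowest at 46 h and highest at 32 h on the second. CDC6 was highest at 2 h and then at 28 h, and GINS2 at the same hours. The difference between days in these ratios was not tested.

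The second day was then compared with the first at matched hours, as 12 pairs 24 h apart in a limma fit with the hour as a block. All pairs come from 1 culture and neighbouring hours are not independent. The p-values measure the spread between matched hours, and not between cultures. GMNN was lower on the second day by 0.20 ± 0.06 (SE, log2; day means 6.95 and 7.15, adjusted p = 0.041, limma), in 11 of 12 pairs. It was the 1 member of 10 called lower, against 5.15% of all genes. No member was called higher, against 9.44% of all genes, and at an unadjusted p under 0.05 in limma there was 1, ORC6. Without the pairs that hold 16 h and 18 h, the GMNN difference was −0.14 ± 0.05 (adjusted p = 0.059, limma), lower in 9 of 10 pairs.

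ORC1 was the member called lower in that second comparison, where 7.04% of all genes were called lower and 12.6% higher. Its difference was −0.16 ± 0.04 (adjusted p = 0.028, limma), lower in 10 of 10 pairs, against −0.10 ± 0.05 (adjusted p = 0.21, limma) with all 12 pairs. ORC6, of the same complex, was higher on the second day in 10 of 12 pairs by 0.14 ± 0.05 (adjusted p = 0.079, limma), which did not pass the threshold. The differences of CDC45, CDT1, MCM10 and DBF4 changed sign when the pairs with 16 h and 18 h were left out, and none was called in either fit. CDC6, GINS1 and GINS2 differed by 0.09 or less in size in both fits, and the lowest adjusted p among them was 0.31 in limma.

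Ratios of FPKM set the partners of a complex or pathway side by side within a library. GMNN over CDT1, inhibitor over target, was 1.87 at 0 h, had a median of 2.05, was highest at 2.78 (22 h) and lowest at 1.40 (46 h), over the 22 time points. At 16 h and 18 h it was 6.16 and 6.95. CDC6 over CDT1, the pair of loaders, ranged from 0.790 (10 h) to 1.76 (22 h), and was 2.31 and 3.0 at 16 h and 18 h. CDC45 over GINS1, both of the active helicase, ranged from 5.77 (22 h) to 10.3 (32 h), and was 12.4 and 13.1 at 16 h and 18 h.

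GINS1 over GINS2, subunits of one complex, was 0.576 at 0 h and 0.536 at 2 h and had a median of 0.943. It was 1.35 and 1.31 at 16 h and 18 h, above its highest of 1.07 (42 h) at the other time points. GINS4 over GINS3, the remaining subunits, ranged from 0.712 (12 h) to 1.28 (28 h) and was 0.786 and 0.904 at 16 h and 18 h, inside that range. DBF4 over CDC7, activator over kinase, was lowest at 4 h (0.780) and highest at 20 h (1.57), and lay inside that range at 16 h (1.32) and 18 h (1.40). Of these ratios, those of GINS4 to GINS3 and of DBF4 to CDC7 therefore lay inside their range at the 2 libraries, and the other 4 lay above theirs. GMNN over CDT1 and CDC6 over CDT1 share their denominator. How often the ratio of any 2 genes left its range there was not taken, so the count is no trait of these partners.

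**Figure D4:**
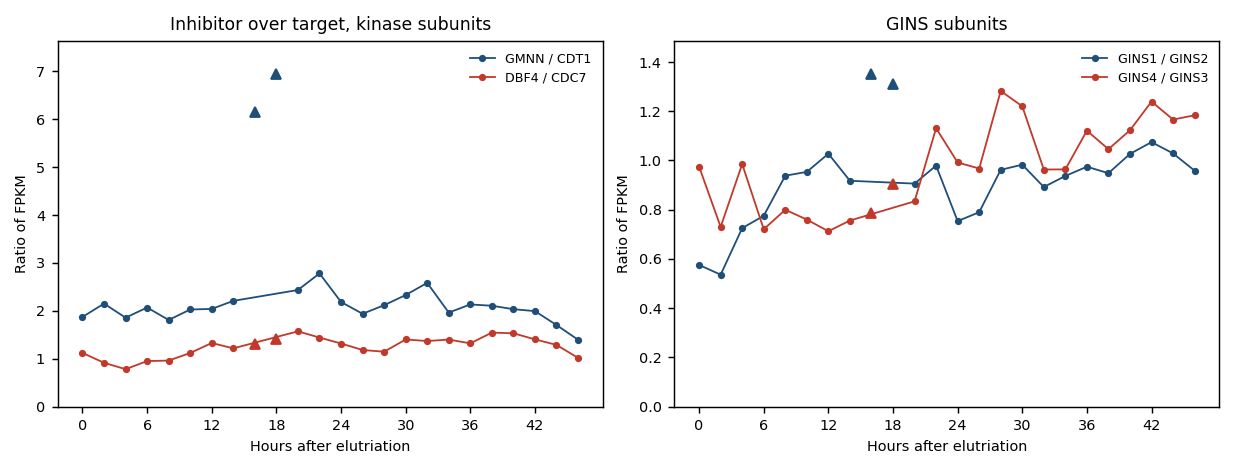
Ratio of FPKM (y axis, from 0) of partner genes against hours after elutriation (x axis), 1 library per point, with triangles for 16 h and 18 h. On the left GMNN over CDT1 reaches 6.95 at 18 h, and DBF4 over CDC7 runs from 0.780 at 4 h to 1.57 at 20 h. On the right GINS1 over GINS2 starts at 0.576.

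Members were also compared by the shape of their profiles, as Pearson r of log2(FPKM + 1) over 22 time points of the same course, which is a description. Of the 45 pairs, 29 had r above 0, and with all 24 time points 26. GMNN and GINS2 were the most alike (r = 0.86), followed by CDC6 and MCM10 (0.79) and CDC6 and GINS2 (0.77). With all 24 time points, GMNN and GINS2 had r = 0.30. DBF4 was below 0 with 8 of the other 9, down to −0.81 with CDT1, and with 5 of them over all 24 time points. Against the mean profile of all 10 members, r was 0.86 for CDC6, 0.85 for GINS2 and for MCM10, 0.20 for ORC1, 0.18 for GINS1 and −0.47 for DBF4. Each member is part of that mean, which raises its r, and no mean without the member was taken. With single members, r of ORC1 ran from −0.56 (DBF4) to 0.55 (CDT1). That of GINS1 ran from −0.56 (ORC1) to 0.51 (MCM10). The mean thus mostly describes a subset.

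Outside the list, the genes most like that mean were CHAF1A (r = 0.93) and CHAF1B (0.90), subunits of a factor that places histones on new DNA, MCM4 (0.89), a subunit of the helicase itself, and CLSPN (0.89), an adaptor of the replication checkpoint. DDX42, MCM5, DONSON, HNRNPUL2-BSCL2, WDR76 and RNF121 followed, down to r = 0.83. CHAF1A was lowest at 14 h (28.9 FPKM) and highest at 6 h (43.5 FPKM), and MCM4 was at 157 FPKM and 257 FPKM at the same hours. Of these 10 genes, 5 were also among the first 10 with all 24 time points.

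By single member, the nearest gene was CHAF1B for CDC6 (r = 0.91), CLSPN for MCM10 (0.94) and PSMC3IP for CDC45 (0.93). For CDT1 it was PAN2 (0.89), for ORC1 PGK1 (0.89), for ORC6 NFYC-AS1 (0.80), for GINS1 PNMA8A (0.88) and for DBF4 MEX3A (0.89). For GINS2 it was ENSG00000271895 (0.90), an identifier with no symbol. NFYC-AS1 is an antisense gene, and without strand in the counting its reads cannot be told apart from those of its partner.

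The rest of the pathway was taken as 3 lists. Of 13 other licensing factors, the cosine test called 5 with all libraries and 9 without 16 h and 18 h, against the 9.17% and 17.1% of all genes given above. MCM5, a helicase subunit, had a peak-to-trough size of 0.74 ± 0.09 (SE, log2; adjusted p = 0.00063, limma) with a peak at 3.9 h, and 0.64 ± 0.08 without the 2 libraries (adjusted p = 0.00068, limma). It ranged from 66.2 FPKM (38 h) to 120 FPKM (4 h) over 22 time points. MCM7 (0.51), MCM2 (0.48) and MCM6 (0.45) were also called, with peaks at 5.3 h, 3.2 h and 1.0 h, as was ORC3 (0.50), of the origin recognition complex, with a peak at 17.4 h. Without the 2 libraries their sizes were 0.36, 0.41, 0.43 and 0.29, all still called. ORC3 was at 70.3 FPKM at 16 h and 78.7 FPKM at 18 h, above its highest of 50 FPKM (40 h) elsewhere. KAT7, a histone acetyltransferase that acts at origins, had the smallest size (0.08, adjusted p = 0.94, limma), and 0.27 without the 2 libraries (adjusted p = 0.040, limma).

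Of 21 other firing and fork factors, 2 were called with all libraries and 7 without the 2, where the same shares of all genes, 9.17% and 17.1%, apply. RECQL4, a helicase needed for origin firing, had 0.90 ± 0.24 (adjusted p = 0.046, limma) with all libraries and 0.43 ± 0.10 (adjusted p = 0.020, limma) without the 2. MTBP, a partner of the firing factor TICRR, had 0.37 with all libraries and 0.38 without them (adjusted p = 0.032 and 0.017, limma), and was lowest at 14 h (8.38 FPKM) and highest at 28 h (13.9 FPKM), the hours of the lowest and highest values of MCM10. CDC7, the kinase that DBF4 activates, had 0.04 ± 0.13 (adjusted p = 0.97, limma), and 0.22 ± 0.07 without the 2 libraries (adjusted p = 0.061, limma), with a fitted peak then at 4.7 h.

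Of 24 genes that control licensing and firing, 4 were called with all libraries and 5 without the 2, against 9.17% and 17.1% of all genes. E2F1, a transcription factor of the G1/S transition, had 1.08 ± 0.26 (adjusted p = 0.030, limma) and 0.66 ± 0.15 without them (adjusted p = 0.019, limma), and CCNE2 had 0.73 and 0.75. DTL, which directs CDT1 to degradation during replication, had 0.60 ± 0.12 (adjusted p = 0.016, limma) with a peak at 23.2 h, and 0.61 ± 0.12 without the 2 (adjusted p = 0.012, limma). It ranged from 27.6 FPKM (14 h) to 66.8 FPKM (2 h) over 22 time points. PPP1CA, a phosphatase subunit that can oppose the kinase, had 0.29 (adjusted p = 0.021, limma) with a peak at 8.4 h, and 0.26 without the 2 (adjusted p = 0.015, limma). SKP1, of a ubiquitin ligase, had 0.01 (adjusted p = 0.99, limma), the smallest of the list with all libraries, and 0.15 without the 2 (adjusted p = 0.092, limma). Without the 2 libraries, the fitted peak lay between 22 h and 8 h for 4 of 4 called members, 7 of 9 called licensing factors, 6 of 7 called firing and fork factors and 4 of 5 called control genes, against 1177 of 2093 called genes overall. The median size was then 0.28 for the members and 0.30, 0.27 and 0.26 for the 3 lists in this order, against 0.22 for all 12253 genes.

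The members were last followed through 16 h and 18 h themselves. The measure was the mean log2(FPKM + 1) at these hours minus the straight line from 14 h to 20 h, and 16 other pairs of neighbouring libraries gave its range elsewhere. With 1 library per time point there was no test. CDC45 was at 163 FPKM at 14 h, 370 FPKM at 16 h, 396 FPKM at 18 h and 161 FPKM at 20 h, a deviation of 1.24 (2.36-fold above), and its range at the other pairs was −0.27 to 0.29. CDT1 was at 56.5 FPKM, 27.5 FPKM, 24.7 FPKM and 51.2 FPKM, a deviation of −1.02 (2.02-fold below), with a range of −0.20 to 0.21. Of the 10 members, CDC45 was the 1 at least 2-fold above its flanks, against 8.95% of all genes, and CDT1 the 1 at least 2-fold below, against 7.11%. The median gene was at 0.14, and with upper-quartile scaling, which moved it to −0.07, CDC45 was at 0.99 and CDT1 at −1.25.

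MCM10 deviated by 0.71, DBF4 by 0.65, GMNN by 0.45, CDC6 by 0.41 and GINS1 by 0.33. ORC6 was at 0.01, or below 0 with median centring or upper-quartile scaling, GINS2 at −0.20 and ORC1 at −0.23. The 2 origin recognition subunits among the members were thus on or below their line at the hours when CDC45 and MCM10 were above theirs. Outside the members, ORC2 (1.11), ORC3 (0.81), ORC4 (1.11) and ORC5 (0.74) of the same complex were above theirs. The 2 GINS subunits among the members parted, with GINS1 above and GINS2 below. GINS3 (−0.54) and GINS4 (−0.45), the remaining subunits, were below theirs like GINS2. In all, 9 of 10 members, ORC6 being the exception, lay outside the range of their own 16 other pairs, against 71.6% of all genes.

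Across the 10 members, Spearman rho of the deviation with the GC content of the longest transcript was −0.47, a description over genes of the same 2 libraries. CDT1 had the highest (64.9%) and the lowest deviation, and genes of like GC content had a running median of −0.78, which left −0.24 for CDT1. DBF4 had the lowest (40.1%), with a running median of 0.51 and 0.14 left. For GINS1, at 41.4% GC, the running median of 0.44 left −0.11, so that its sign turned. ORC1, GINS2 and ORC6 lay further from 0 after the running median was removed, at −0.27, −0.32 and −0.18. At 51.4% GC the running median of CDC45 was −0.02, so that 1.26 was left. CDC45 was the only member at least 2-fold from genes of like GC content, against 660 genes above and 488 below of 12148. Its excess was also measured at single libraries: it was 0.38 above the mean of its neighbours at 6 h and 0.44 at 32 h. Its range at 16 other time points was −0.25 to 0.10. Such a range kept the time points next to 6 h and 32 h, whose neighbour means hold these libraries. The share of all genes outside their range at 6 h and 32 h was not taken. At 6 h GMNN also lay above its range and ORC1 below, and at 32 h DBF4 lay above and ORC1 and ORC6 below. The part of GC content or RNA quality in these deviations was not tested.

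**Figure D5:**
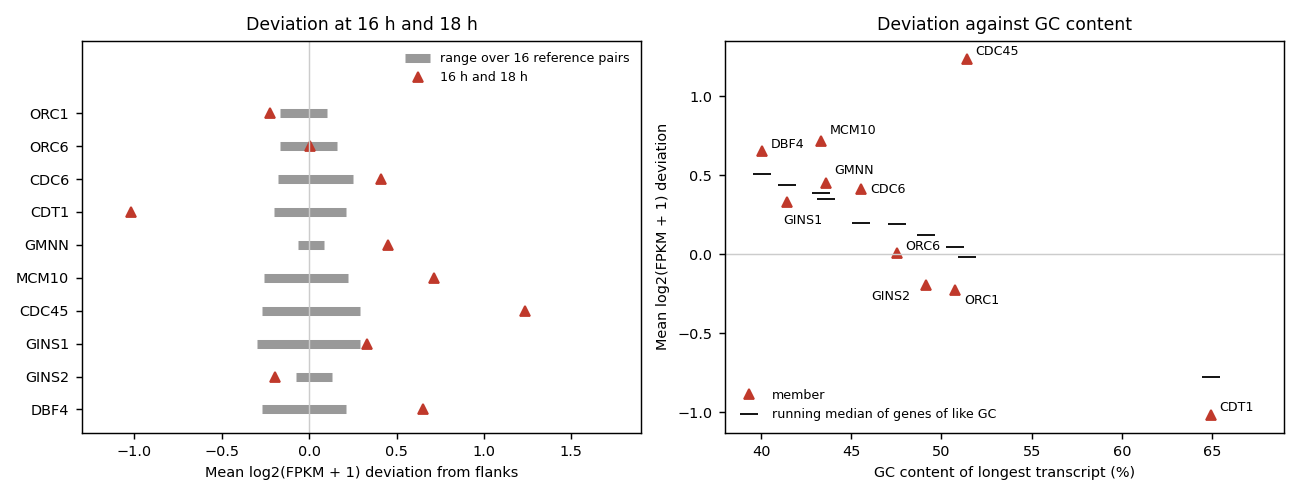
Left: mean log2(FPKM + 1) deviation of each member at 16 h and 18 h from the line between 14 h and 20 h (triangles, x axis), with the range at 16 other pairs of libraries (grey bars). Right: the same deviation (y axis) against GC content of the longest transcript in percent (x axis), with dashes for the running median of genes of like GC content. CDT1 lies near its dash, CDC45 far above it.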

How the data were processed

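RNA from 24 K562 samples, 1 per time point, was sequenced (total RNA, acid phenol extraction, Illumina HiSeq). The FPKM values were made by the authors with STAR and Cufflinks and normalized with Cuffnorm, on GRCh37 per the submitters' processing notes. Tool versions, the annotation and strand setting were not given in the sources used here. The second deposited table held a score per gene, a Z-scored and quantile-normalized version of the first (ZQN), and was used only as an alternative. Labels gave the hour of each column. Every gene in the table had at least 1 FPKM at 12 or more time points. Reads were not recovered from the values, so depth is unknown, no count model was used and no counting interval can be given.

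The members and all lists were chosen with earlier results of these data known. Ensembl identifiers were matched to GENCODE 29 for symbol, transcript length and GC content (12180 of 12285), and promoter windows came from RefSeq on GRCh38.p14, without conversion. JTK (Python 3.11.15, numpy 2.4.6, 100000 orderings of the time points) used FPKM of all 12285 genes. Limma 3.58.1 in R 4.3.3 fitted log2(FPKM + 1), with a pseudocount of 1 that understates changes of low genes, for the 12253 genes averaging 1 FPKM or more, with a trend and Benjamini-Hochberg adjustment over all of them. A call needed an adjusted p of at most 0.05 or, at 16 h and 18 h, a 2-fold deviation. GC trends were running medians over 500 neighbouring genes by GC content. JTK and the limma cosine and day fits were tested on simulated data, with independent noise and no libraries like those at 16 h and 18 h. The other measures were not tested in this way. Named genes were the 10 members, up to 5 genes of each list with the largest called cosine and the 1 with the smallest cosine, the 10 genes with the highest r with the members' mean Z-score, the nearest gene of each member (that of GMNN is not reported here), and CCNE2 and CCNB1. CDC7, GINS3, GINS4, ORC2, ORC4, ORC5, MALAT1 and the markers were named outside this rule. Alternatives changed the libraries, correction (PCHIP, QN and ZQN), scaling, filter, pseudocount, period and block.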

Additional observations from a re-analysis of the deposited data

How the results depend on the processing

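No pairing by replicate was possible because the labels carry no replicate numbers. The 12 pairs of hours come from the time label, with the hour as block. Without it ORC6 was called higher (1 member), and with the pairs of 6 h, 16 h, 18 h and 32 h left out ORC6 was also called (1 member). Depth is unknown, 1 culture was followed, and the 24 h period was assumed.

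JTK calls were 3 members and 1602 genes. With 16 h and 18 h replaced by PCHIP interpolation, which imputes both values, 5 members were called (CDC6, GMNN, CDC45, GINS2 and MCM10), as were 2264 genes. At a period of 20 h, 381 genes and 0 members were called by JTK (3 members at an unadjusted p under 0.05), at 28 h 447 genes, and without 6 h, 16 h, 18 h and 32 h 927 genes. The cosine fit of limma called 2 members and 1123 genes. It called 2093 genes and 4 members without 16 h and 18 h, 1998 genes with median centring as well, and 2374 genes and 5 members with PCHIP. At 20 h it called 0 genes and 0 members (2659 genes and 4 members at an unadjusted p under 0.05), and at 28 h 89 genes.

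Between days, 634 genes were called higher at a mean of at least 5 FPKM. With median centring and without the pairs of 16 h and 18 h, 1299 genes and 2 members (GMNN and ORC1) were called lower. Without these pairs the difference was −0.0761 for CDT1, 0.119 for CDC45, 0.0861 for MCM10 and 0.0945 for DBF4, opposite to all 12 pairs. With median centring too these were −0.108, 0.0876, 0.0547 and 0.0630, and without the pairs of 6 h and 32 h too CDC45 had 0.133, MCM10 0.0551 and DBF4 0.0342. Upper-quartile scaling gave 0.0026 for GINS2, 0.0416 for MCM10 and 0.0066 for DBF4, also opposite. None of these was called.

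At 16 h and 18 h the median gene deviated by 0.14, by 0.03 with median centring and by −0.07 with upper-quartile scaling, and 55.7%, 41.6% and 30.1% of the 2-fold genes were above. A pseudocount of 0.1 put 1308 genes below. Upper-quartile scaling put 568 above and 1321 below, and 0 members above (CDC45 at 0.99). At 1.5-fold, 2933 genes and 3 members were above and 2060 genes below. After removal of the GC trend, 660 genes were above, 488 genes below and 0 members below. Of the 10 genes nearest to the members' mean, 5 were shared with all 24 time points. The alternatives without 6 h and 32 h, with 2 choices combined, and with the GC trend removed were chosen after seeing the data.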
